A study of Mus musculus with 6 samples.

Results

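The transcripts of ion channel genes were measured in alveolar macrophages, phagocytes that live in the air spaces of the lung, by RNA-seq of bulk primary cells. The members were chosen by symbol: potassium channels (Kcn), transient receptor potential channels (Trp families and Mcoln), chloride channels and transporters (Clcn, Clic, Ano, Lrrc8), voltage-gated calcium and sodium channel subunits (Cacn, Scn), P2X receptors, Piezo and Orai channels and the proton channel Hvcn1. This gave 172 of the 17142 genes in the deposited table. Of these, 50 reached at least 1 TPM in at least 3 of the 6 libraries and were tested, and 122 stayed under that level. TPM scales reads by gene length and sums to 1000000 per library. Levels of different genes can thus be set side by side, but the files do not hold the sequencing depth, and values carry no counting interval. The libraries were 3 from Trim33 knockout and 3 from WT cells, all from allergen-exposed mice, and the series title speaks of one challenge. Trim33 encodes a tripartite-motif chromatin protein that binds SMAD proteins. The labels give no strain, age, sex, allergen, driver of the deletion or deleted exons. They also leave unsaid whether the replicates were separate animals. The p-values therefore reflect only how these 6 libraries spread, part of which may be technical.

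Ion channels let ions cross membranes along their gradients. In macrophages they set the membrane potential and carry the calcium entry that activates NFAT and phospholipases. In endosomes and lysosomes they balance the charge moved by the proton pump, and the proton channel of the plasma membrane does the same for the NADPH oxidase. P2X receptors are cation channels opened by extracellular ATP, a danger signal in injured or inflamed tissue, and potassium loss through P2X7 and other channels is a known trigger of the NLRP3 inflammasome.

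The targeted gene was lower in every knockout library, with Trim33 at 2.63 to 3.98 TPM in Trim33 knockout and 6.83 to 10.97 TPM in WT libraries. The log2 difference was -1.08 ± 0.19 (SE, limma adjusted p 0.0114), and by exact permutation (two-sided) p was 0.1, the lowest value possible with 3 libraries against 3. Each library had 15182 to 15535 genes above 0. Over all 11111 genes tested the median log2 difference was -0.15, and median-ratio scaling moved it to -0.0025, so differences on the TPM scale are to be read against that shift. All log2 differences are Trim33 knockout minus WT on log2(TPM + 1), which understates changes of low genes. In bulk RNA, fewer cells of a type and less RNA per cell cannot be told apart.

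The channel genes together held 0.300% to 0.305% of the TPM in Trim33 knockout libraries and 0.293% to 0.335% in WT libraries. Their levels were very uneven. Of the 50 tested genes, 8 averaged at least 100 TPM over the 6 libraries, 24 lay between 10 and 100 TPM and 18 were under 10 TPM. The 5 most abundant genes, Clic1, Hvcn1, Clic4, Mcoln3 and Trpv2, carried 56.7% of the TPM of all 172 members. Clic1, a redox-sensitive chloride intracellular channel protein, stood at 627.88 ± 1.84 TPM in Trim33 knockout and 618 ± 56.3 TPM in WT (SD, n = 3 each). Hvcn1, the proton channel, followed at 460.5 ± 17.2 TPM in Trim33 knockout and 492 ± 39.4 TPM in WT. Clic4, a relative of Clic1, stood at 304 ± 18.7 TPM in Trim33 knockout and 312 ± 25.04 TPM in WT.

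**Figure D1:**
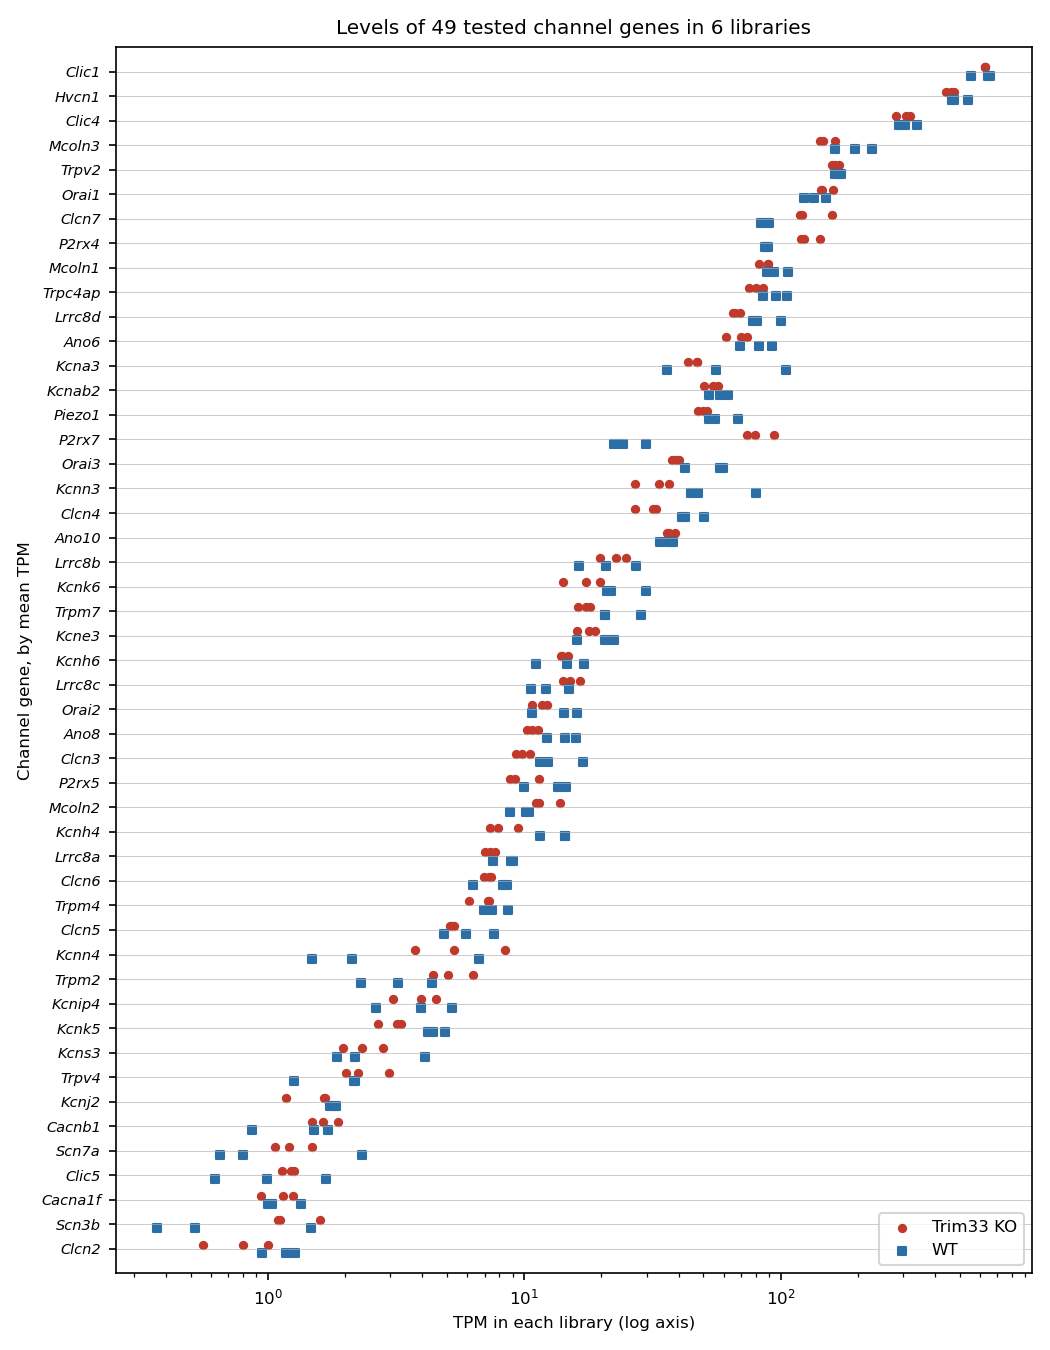
TPM of 49 of the 50 tested channel genes (rows, ordered by mean) in each library on a log axis, with 3 Trim33 knockout libraries as red circles and 3 WT libraries as blue squares. Clic1 and Hvcn1 lead in both groups, and P2rx7 shows the widest gap between the groups, with 73.84 to 93.86 TPM in knockout and 22.41 to 29.78 TPM in WT.

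Between the genotypes 3 channel genes were higher and 4 lower in the knockout, and 43 did not pass (limma on log2(TPM + 1), adjusted p under 0.05 over all genes tested, n = 3 per group). P2rx7, P2rx4 and Clcn7 rose, and Clcn4, Kcnh4, Orai3 and Lrrc8d fell. The 3 higher genes are 6% of the tested members, where 4.47% of all tested genes were higher. The 4 lower genes are 8%, where 10.2% of all tested genes were lower, so both shares lay near the background of this comparison. The median log2 difference of the 50 channel genes was -0.10, beside -0.15 for all genes, with 18 positive and 32 negative differences. All 3 knockout values lay above the WT values for 6 channel genes (9.84% of all genes did so) and below them for 13 (34.6% of all genes).

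The number of called channel genes moved with the processing, and so did the share called among all genes. Without WT replicate 1, 4 channel genes were higher (7.2% of all genes) and 14 lower (23.2% of all genes). The gene gained as higher was Kcnn4. Those gained as lower were Mcoln3 (log2 difference -0.49, adjusted p 0.00747), Kcnn3 (-0.92, adjusted p 0.0409), Kcnk5, Kcnk6, Trpm7, Trpc4ap, Ano6, Ano8, Orai2 and P2rx5. WT replicate 2 had the highest value of all 6 libraries for 29 of the 50 tested channel genes, Clcn4, Orai3 and Lrrc8d among them, and for 53.8% of all tested genes. Without WT replicate 2, 2 were higher (1.74%) and 0 lower (1.67%), and at an unadjusted p under 0.05, 9 were higher and 11 lower. Without WT replicate 3, 2 were higher (1.12%) and 1 lower (0.756%). Without Trim33 knockout replicate 1, 3 were higher (1.72%) and 0 lower (1.16%), and at an unadjusted p under 0.05, 3 were higher and 10 lower. Without knockout replicate 2, 3 were higher (1.51%) and 1 lower (1.27%), and without knockout replicate 3, 3 were higher (3.97%) and 2 lower (5.03%). After median-ratio scaling 5 were higher (5.99%) and 2 lower (3.45%), and after quantile normalization 6 were higher (5.03%) and 2 lower (5.28%). The genes gained as higher were Lrrc8c and Trpm2 under both scalings, and Mcoln2 under quantile normalization. FPKM values gave 3 higher (4.98%) and 2 lower (7.83%), a pseudocount of 5 gave 3 (4.31%) and 2 (9.33%), one of 0.1 gave 3 (4.41%) and 4 (10.2%), a minimum of 5 TPM gave 3 (4.46%) and 4 (12.9%), no filter gave 4 (2.03%) and 2 (1.9%), and plain variance moderation gave 3 (4.22%) and 3 (6.05%). With WT replicate 2 left out and median-ratio scaling together, chosen after seeing the data, 2 were higher (2.04%) and 0 lower (0.495%). At an unadjusted p under 0.05, 11 were then higher and 4 lower, beside 5 higher and 12 lower with all libraries on the TPM scale. No share of all genes is given at the unadjusted level, so these counts show nothing particular to channel genes.

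**Figure D2:**
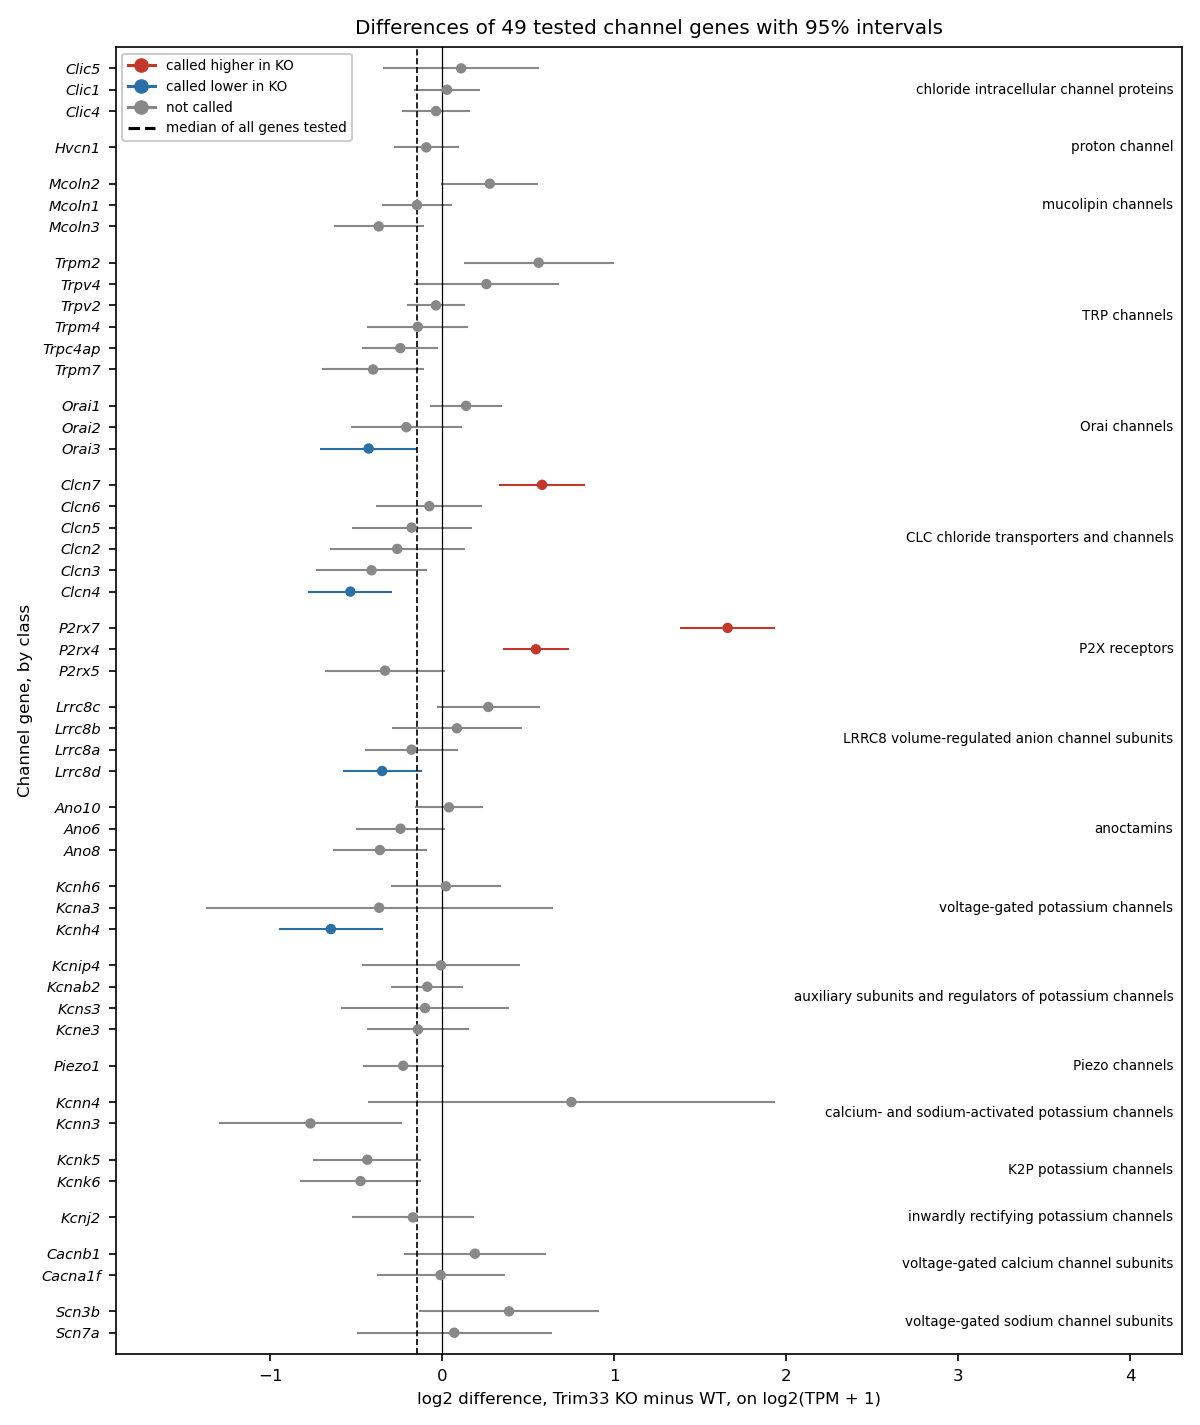
Log2 difference (Trim33 knockout minus WT, on log2(TPM + 1)) of 49 of the 50 tested channel genes with 95% intervals, grouped by class. Red marks the 3 genes called higher, blue the 4 called lower and grey 42 not called. The dashed line marks the median of all tested genes at -0.15. P2rx7 stands apart at 1.66.

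P2rx7 had the largest rise and the smallest p of all tested channel genes. It encodes the P2X receptor that needs high ATP concentrations and that triggers potassium efflux and interleukin-1β release in macrophages. Replicates 1, 2 and 3 had 73.84, 93.86 and 79.39 TPM in Trim33 knockout, against 22.41, 29.78 and 24.18 TPM in WT. Every knockout library lay far above every WT library. The means were 82.4 ± 10.3 TPM in Trim33 knockout and 25.5 ± 3.85 TPM in WT (SD, n = 3 each), a 3.24-fold ratio, with a log2 difference of 1.66 ± 0.13 (SE, limma adjusted p 4.13e-05).

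P2rx4, an ATP-gated channel that is highly permeable to calcium and is found largely in lysosomes, rose as well. Replicates 1, 2 and 3 had 142.22, 120.51 and 123.96 TPM in Trim33 knockout and 89.08, 87.96 and 86.60 TPM in WT. The WT libraries lay close together and all knockout libraries lay above them. The log2 difference was 0.54 ± 0.09 (SE, limma adjusted p 0.0072), a 1.47-fold ratio of the means, 129 ± 11.7 TPM in knockout and 87.9 ± 1.24 TPM in WT (SD, n = 3 each). P2rx7 and P2rx4 were the only channel genes that passed in all 16 alternatives tried. P2rx5, the third receptor of the family above the filter, did not pass, with 11.44, 9.18 and 8.83 TPM in Trim33 knockout and 9.99, 14.58 and 13.54 TPM in WT (log2 difference -0.33, 95% interval -0.68 to 0.01, limma adjusted p 0.146). The other 4 P2X genes, P2rx1, P2rx2, P2rx3 and P2rx6, were under the filter, at 0.23 TPM or less in every library. Summed over the family, P2X transcripts came to 221 ± 7.99 TPM in Trim33 knockout and 126 ± 5.6 TPM in WT.

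P2rx7 (Entrez gene 18439, chromosome 5, 122643927 to 122692336 on GRCm38.p6) and P2rx4 (Entrez gene 18438, chromosome 5, 122707518 to 122729739) are neighbours, 15181 bases apart. Of the other genes in the table within 200 kb of the pair, Rnf34, a ubiquitin ligase gene, passed as higher (48.9 TPM in knockout and 33.5 TPM in WT, limma adjusted p 0.0181). Anapc7, Atp2a2, Ift81, Camkk2, Anapc5 and Kdm2b did not pass. These neighbours were looked at after the P2X values were seen. The span of P2rx4 overlaps that of Camkk2 by 11360 bases, and whether reads were counted by strand is not given in the sources used here. Camkk2 had 29.96, 33.93 and 30.15 TPM in Trim33 knockout and 25.77, 27.29 and 27.79 TPM in WT, well under P2rx4.

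The promoter windows of this pair, whose transcripts rose together, and of a pair of CLC genes that went opposite ways are given here as RefSeq on GRCm38.p6 lists them, from 250 bases before to 50 bases after an annotated start. Capitals mark matches, on either strand, to CACGTG (the E-box core that MiT/TFE factors of lysosomal genes bind) and TGANTCA (the AP-1 site). A core of the interferon-stimulated response element was searched as well, and all 3 motifs were chosen after results and sequences were known. Of all 32851 windows of this length, 7.15% hold CACGTG, 7.81% hold TGANTCA and 3.44% hold the interferon element core, which matched none of these windows.
P2rx7, chr5:122643677-122643976, plus strand: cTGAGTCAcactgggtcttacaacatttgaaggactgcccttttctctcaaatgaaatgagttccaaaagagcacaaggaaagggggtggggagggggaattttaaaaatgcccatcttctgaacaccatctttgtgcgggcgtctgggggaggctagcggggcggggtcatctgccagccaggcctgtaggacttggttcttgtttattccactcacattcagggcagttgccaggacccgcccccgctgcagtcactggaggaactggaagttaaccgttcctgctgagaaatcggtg
P2rx4, chr5:122707294-122707593, plus strand: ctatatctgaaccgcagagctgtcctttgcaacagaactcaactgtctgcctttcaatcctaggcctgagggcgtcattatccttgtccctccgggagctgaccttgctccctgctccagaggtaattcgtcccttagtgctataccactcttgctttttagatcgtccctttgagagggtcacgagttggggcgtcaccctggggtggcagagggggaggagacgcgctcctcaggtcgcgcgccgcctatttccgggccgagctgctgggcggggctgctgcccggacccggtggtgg
Clcn7, chr17:25133141-25133440, plus strand: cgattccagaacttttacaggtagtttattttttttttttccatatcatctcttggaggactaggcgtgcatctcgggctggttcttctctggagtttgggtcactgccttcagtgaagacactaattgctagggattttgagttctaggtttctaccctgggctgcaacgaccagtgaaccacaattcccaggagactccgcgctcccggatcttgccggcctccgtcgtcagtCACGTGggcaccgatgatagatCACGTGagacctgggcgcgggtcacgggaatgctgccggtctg
Clcn4, chr7:7299508-7299807, minus strand: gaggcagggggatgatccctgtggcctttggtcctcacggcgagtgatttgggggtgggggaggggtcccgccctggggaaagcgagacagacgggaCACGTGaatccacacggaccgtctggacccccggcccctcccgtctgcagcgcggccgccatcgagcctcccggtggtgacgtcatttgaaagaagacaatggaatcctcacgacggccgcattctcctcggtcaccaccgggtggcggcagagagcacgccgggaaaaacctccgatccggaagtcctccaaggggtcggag
The P2rx7 window held 1 TGANTCA match, near its upstream end, and the P2rx4 window held none of the 3 motifs. The Clcn7 window held 2 CACGTG matches, which began 15 bases before and 7 bases after the start, and the Clcn4 window held 1. P2rx7, Clcn7 and Clcn4 each have another listed window, none of which held a match. A match is a string of letters and no measured binding.

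The CLC family moved in both directions. Clcn7 (Entrez gene 26373, chromosome 17, 25133378 to 25162103), the chloride-proton exchanger of lysosomes, had 158.83, 121.28 and 119.23 TPM in Trim33 knockout and 90.30, 89.43 and 84.23 TPM in WT. Every knockout library exceeded every WT library, with replicate 1 of the knockout the highest. The log2 difference was 0.58 ± 0.11 (SE, limma adjusted p 0.0147), a 1.51-fold ratio. The call ended without WT replicate 2 or 3 (adjusted p 0.0546 without replicate 2 and 0.0666 without replicate 3), with the log2 difference at 0.59 and 0.55. Ostm1, the β subunit that CLC-7 needs for its stability, had 48.6 ± 1.23 TPM in Trim33 knockout and 50.5 ± 5.07 TPM in WT and did not pass (limma adjusted p 0.72).

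Clcn4 (Entrez gene 12727, chromosome 7, 7282309 to 7300916), an exchanger of endosomes, was lower. It had 27.09, 31.78 and 32.56 TPM in Trim33 knockout and 41.40, 50.25 and 42.25 TPM in WT, with no overlap. The log2 difference was -0.53 ± 0.11 (SE, limma adjusted p 0.0174), and the call ended when any library other than WT replicate 1 or knockout replicate 3 was left out. Clcn3, the exchanger with which CLC-4 assembles, had 9.77, 9.28 and 10.56 TPM in Trim33 knockout and 12.41, 16.92 and 11.53 TPM in WT, also without overlap, and did not pass (log2 difference -0.41, 95% interval -0.74 to -0.09, adjusted p 0.0753). Clcn5 (mean 5.22 TPM in knockout, 6.12 TPM in WT), Clcn6 (7.22 TPM in knockout, 7.73 TPM in WT) and Clcn2 (0.787 TPM in knockout, 1.14 TPM in WT) did not pass either. Of the 6 tested CLC genes, 1 was higher, 1 lower and 4 did not pass.

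**Figure D3:**
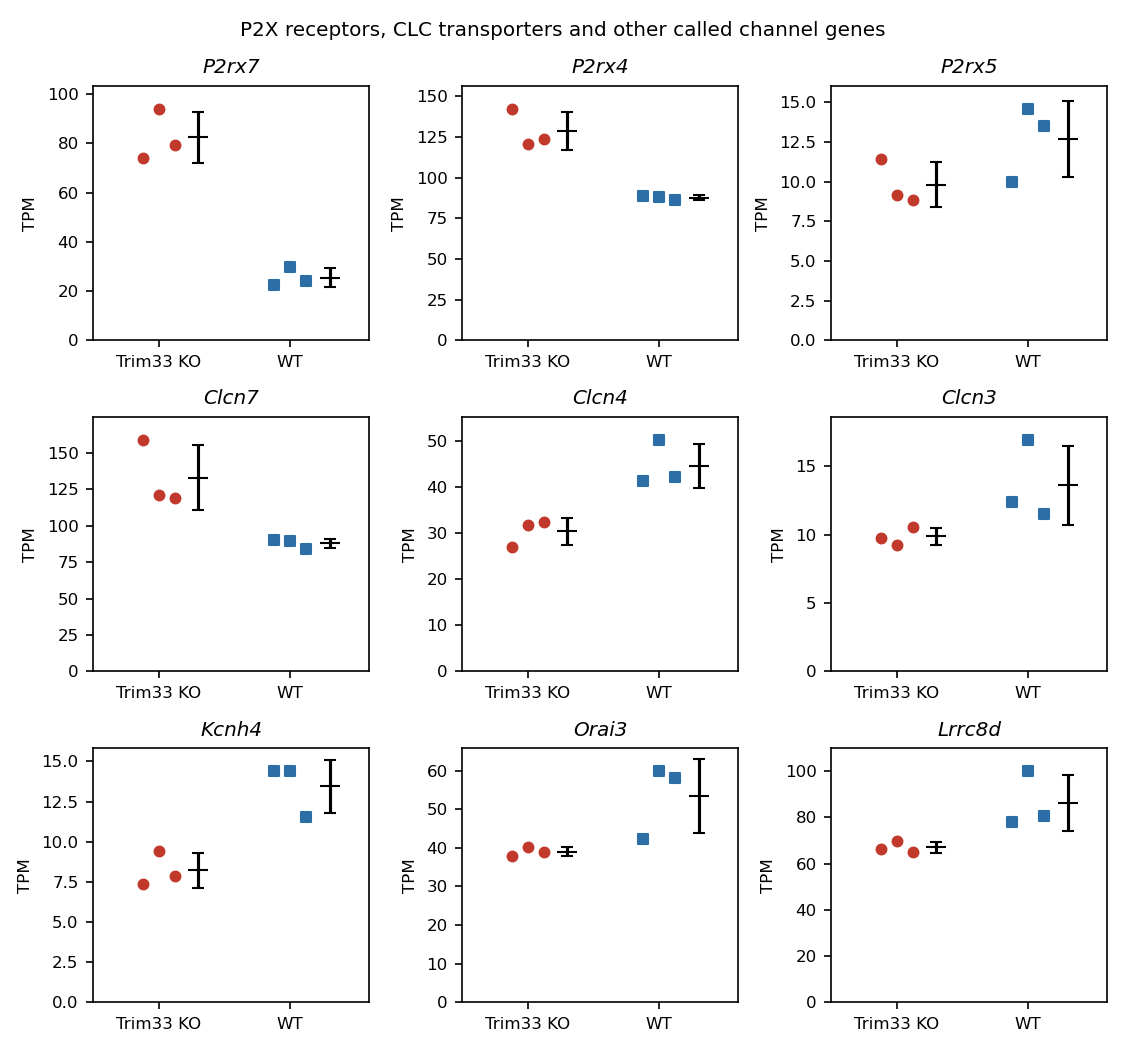
TPM per library of 3 P2X genes, 3 CLC genes and the other 3 lower channel genes, with Trim33 knockout (red circles) left of WT (blue squares) and the mean ± SD of 3 libraries in black. P2rx7, P2rx4 and Clcn7 are higher in every knockout library, and Clcn4, Kcnh4, Orai3 and Lrrc8d lower. Clcn3, whose groups do not overlap, and P2rx5, whose groups do, were not called.

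Genes of potassium channels and their auxiliary subunits were mostly silent in these macrophages. Only 12 of the 78 Kcn genes were tested, and 1 of them passed. The 78 include 22 genes of auxiliary subunits and regulators, of which 4 were tested. Kcnh4 (Entrez gene 380728, chromosome 11, 100740378 to 100760115), a voltage-gated channel of the Elk family, had 7.37, 9.42 and 7.87 TPM in Trim33 knockout and 14.40, 14.38 and 11.57 TPM in WT. The groups did not overlap, and the log2 difference was -0.65 ± 0.14 (SE, limma adjusted p 0.0181), a 1.64-fold ratio of WT over knockout. The call ended without knockout replicate 1 or WT replicate 2. Its relative Kcnh6 did not pass, at 14.3 ± 0.507 TPM in knockout and 14.3 ± 2.97 TPM in WT.

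Kcnn3, a small-conductance channel opened by calcium through bound calmodulin, had the widest negative difference among channel genes that missed the threshold. It had 27.14, 36.64 and 33.64 TPM in Trim33 knockout and 44.81, 79.98 and 47.71 TPM in WT. The groups did not overlap and WT replicate 2 was far above the others, with a log2 difference of -0.77 (95% interval -1.30 to -0.24, limma adjusted p 0.0597). Kcnn4, the intermediate-conductance channel of activated leukocytes, varied within both groups, at 8.42, 5.31 and 3.76 TPM in Trim33 knockout and 6.69, 2.12 and 1.48 TPM in WT. Replicate 1 was the highest library in each group, and the interval of its log2 difference ran from -0.43 to 1.93 (adjusted p 0.296). Without WT replicate 1 the Kcnn4 difference was 1.24 and passed (adjusted p 0.0144), and with the replicate number as a block it passed at 0.75 (adjusted p 0.00638).

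Kcna3, the voltage-gated channel best known from T cells and macrophages, showed 43.66, 47.29 and 47.16 TPM in Trim33 knockout and 36.00, 105.19 and 55.76 TPM in WT. The knockout libraries lay close together inside the wide WT range, so the log2 difference of -0.37 had an interval of -1.38 to 0.64 (limma adjusted p 0.526). Without WT replicate 2 it was 0.04. Kcnab2, an auxiliary β subunit of such channels, was at 54.04 ± 3.36 TPM in Trim33 knockout and 57.5 ± 4.8 TPM in WT. The K2P channels Kcnk6, a route of potassium efflux ahead of NLRP3 activation, and Kcnk5 had all knockout values below all WT values but did not pass. Kcnk6 had 14.13, 17.37 and 19.77 TPM in Trim33 knockout and 20.99, 29.98 and 21.79 TPM in WT (adjusted p 0.0651), and Kcnk5 had 3.32, 2.70 and 3.19 TPM in Trim33 knockout and 4.20, 4.89 and 4.42 TPM in WT (adjusted p 0.0595). Kcnj2, the strong inward rectifier, was low, at 1.18 to 1.67 TPM in Trim33 knockout and 1.74 to 1.84 TPM in WT (adjusted p 0.445). Kcnk13, a K2P channel with a known role in microglia, was under the filter at 0.14 to 0.44 TPM in Trim33 knockout and 0.06 to 0.20 TPM in WT.

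The Orai genes encode the pore of store-operated calcium channels, which STIM proteins open when the endoplasmic reticulum is depleted. Orai1 was the most abundant, with 145.70, 160.45 and 143.54 TPM in Trim33 knockout and 123.51, 134.94 and 150.85 TPM in WT, and did not pass (log2 difference 0.14, 95% interval -0.07 to 0.35, limma adjusted p 0.299). Orai3 (Entrez gene 269999, chromosome 7, 127769815 to 127775150) had 37.80, 40.09 and 39.01 TPM in Trim33 knockout and 42.35, 59.84 and 57.97 TPM in WT. All knockout libraries were below all WT libraries, WT replicate 1 by a small margin. Its log2 difference was -0.43 ± 0.13 (SE, limma adjusted p 0.0476), and the call was lost in 12 of 16 alternatives, among them median-ratio scaling (-0.27, adjusted p 0.126) and the omission of any library other than WT replicate 1. Orai2 had 11.6 ± 0.783 TPM in Trim33 knockout and 13.7 ± 2.71 TPM in WT (adjusted p 0.307).

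Among the genes that work with these pores, 4 of 26 tested genes of store-operated entry and calcium handling were lower and none was higher, with a median log2 difference of -0.20 beside -0.15 for all genes. Among all genes 10.2% were lower. They were the catalytic calcineurin subunits Ppp3cb (27.1 TPM in knockout, 38.7 TPM in WT) and Ppp3ca (32.6 TPM in knockout, 42.6 TPM in WT), the calmodulin gene Calm2 (381 TPM in knockout, 470.1 TPM in WT) and the mitochondrial sodium-calcium exchanger Slc8b1 (62.8 TPM in knockout, 82.3 TPM in WT), with limma adjusted p from 0.0264 to 0.0411. The stores' calcium sensor Stim1 had 33.7 ± 2.92 TPM in Trim33 knockout and 41.1 ± 3.3 TPM in WT and did not pass (adjusted p 0.0808). After median-ratio scaling 1 of these genes was lower. Without WT replicate 1 there were 10 lower genes and 1 higher, without knockout replicate 3 there were 2 lower, and without any other 1 library 0.

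TRP channels are cation channels opened by stretch, heat, oxidants or lipids. None of the 6 tested Trp genes passed. Trpv2, a channel of phagocytosing macrophages, was the most abundant and nearly equal in all libraries, with 158.56 to 168.35 TPM in Trim33 knockout and 162.51 to 171.60 TPM in WT. The interval of its log2 difference was -0.20 to 0.13 (limma adjusted p 0.732). Trpm2, opened by ADP-ribose and oxidants, had 6.32, 4.41 and 5.06 TPM in Trim33 knockout and 3.22, 4.38 and 2.30 TPM in WT. The groups did not overlap, by a very small margin, and the log2 difference of 0.56 (95% interval 0.12 to 0.996) did not pass (adjusted p 0.0728). It did pass after median-ratio scaling (0.69, adjusted p 0.0455), after quantile normalization (0.68, adjusted p 0.0384) and with the replicate number as a block (adjusted p 0.0377). Trpm7, a channel fused to a kinase, had 17.2 ± 0.979 TPM in Trim33 knockout and 23.3 ± 4.54 TPM in WT (adjusted p 0.0633). Trpc4ap, which the symbol rule takes in although it encodes an adaptor and not a pore, had 80.4 ± 5.27 TPM in Trim33 knockout and 95.7 ± 10.7 TPM in WT (adjusted p 0.106).

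The mucolipins release cations, calcium included, from endosomes and lysosomes. Mcoln3 had 145.85, 142.31 and 162.57 TPM in Trim33 knockout and 163.50, 228.20 and 195.96 TPM in WT. The groups did not overlap, again by a small margin, and the difference of -0.37 did not pass (limma adjusted p 0.0584). It did without WT replicate 1 and with the replicate number as a block (adjusted p 0.0160). Mcoln1, the ubiquitous lysosomal member, had 86.7 ± 4.01 TPM in Trim33 knockout and 96.4 ± 9.6 TPM in WT (adjusted p 0.260). Mcoln2, which is inducible in macrophages, had 13.79, 11.45 and 11.10 TPM in Trim33 knockout, each above the 10.19, 10.44 and 8.81 TPM of WT, and did not pass (log2 difference 0.28, adjusted p 0.140) except after quantile normalization (0.44, adjusted p 0.0455). Piezo1, a channel opened by membrane stretch, had 47.66, 51.86 and 49.78 TPM in Trim33 knockout and 55.49, 68.08 and 52.77 TPM in WT (log2 difference -0.23, 95% interval -0.46 to 0.01, adjusted p 0.143). The span of Piezo1 shares 1395 bases with Ctu2, at 13.48 TPM in knockout and 13.54 TPM in WT. Piezo2 stayed at or under 0.12 TPM.

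Hvcn1 had 476.85, 442.61 and 462.02 TPM in Trim33 knockout and 464.42, 537.23 and 474.86 TPM in WT, and the groups overlapped. Its log2 difference of -0.09 had an interval of -0.28 to 0.09 (limma adjusted p 0.429). The span of Hvcn1 shares 2803 bases with Tctn1, at 3.53 TPM in knockout and 5.14 TPM in WT. In the NADPH oxidase, whose charge this channel balances, 1 of 8 subunit and partner genes was higher and 1 lower, beside 4.47% higher and 10.2% lower among all genes. Ncf4 rose to 110 ± 9.53 TPM in Trim33 knockout, against 85 ± 8.02 TPM in WT, with adjusted p 0.0387. Ncf4 encodes a cytosolic subunit of the oxidase, and its call was lost without knockout replicate 1 or 2 or WT replicate 2 or 3. Clic1 and Clic4 did not pass, with intervals of -0.16 to 0.22 for Clic1 and -0.23 to 0.16 for Clic4.

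LRRC8 proteins form the volume-regulated anion channel, with LRRC8A as the obligatory subunit. Lrrc8d (Entrez gene 231549, chromosome 5, 105699963 to 105815215), whose product widens the channel's range to uncharged osmolytes, had 66.33, 69.71 and 65.28 TPM in Trim33 knockout and 78.18, 100.06 and 80.66 TPM in WT. The groups did not overlap, and the log2 difference was -0.35 ± 0.10 (SE, limma adjusted p 0.0477). This call too was lost in 12 of 16 alternatives, among them median-ratio scaling (-0.19, adjusted p 0.139) and the omission of any library other than WT replicate 1. Lrrc8a had 7.36 ± 0.355 TPM in Trim33 knockout and 8.48 ± 0.786 TPM in WT (adjusted p 0.299). Lrrc8c, which with LRRC8A carries cyclic dinucleotides, had 15.08, 16.50 and 14.17 TPM in Trim33 knockout and 12.17, 14.94 and 10.67 TPM in WT. It did not pass on the TPM scale (0.27, adjusted p 0.17) but did after median-ratio scaling (0.42, adjusted p 0.0425) and quantile normalization (0.43, adjusted p 0.0359). Of the anoctamins, Ano6, a calcium-activated lipid scramblase and channel, had 68.4 ± 6.71 TPM in Trim33 knockout and 81.4 ± 11.4 TPM in WT (adjusted p 0.152), and none of the 3 tested passed.

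Voltage-gated calcium and sodium channel genes were close to silent, with 26 of 31 under the filter. None of the tested ones was called. The calcium channel β subunit Cacnb1 had 1.67 ± 0.191 TPM in Trim33 knockout and 1.36 ± 0.439 TPM in WT, and its span shares 1032 bases with the ribosomal protein gene Rpl19, at 1345 TPM in knockout and 1331 TPM in WT.

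Of the 122 members under the filter, 86 averaged under 0.1 TPM, and Kcna4 and Kcnj1 were listed at 0 in all libraries. Just inside the filter lay Clcn2, with 1.0, 0.80 and 0.56 TPM in Trim33 knockout and 0.95, 1.18 and 1.28 TPM in WT. Just outside it lay Trpm1, the melastatin channel of retina and pigment cells, with 0.99, 1.08 and 1.18 TPM in Trim33 knockout and 0.38, 0.17 and 0.33 TPM in WT, and Clic6, with 0.97, 1.11 and 1.37 TPM in Trim33 knockout and 0.61, 0.69 and 0.44 TPM in WT. Both were above all WT libraries in every knockout library at a level near 1 TPM. With no filter, Trpm1 passed (log2 difference 0.69, limma adjusted p 0.0313), where 2.03% of all genes were higher. The other untested genes with the highest means were Kcnj10 (0.58 to 0.65 TPM in knockout, 0.53 to 1.31 TPM in WT), Kcnh7 (0.52 to 0.82 TPM in knockout, 0.34 to 0.79 TPM in WT) and Kcnab1 (0.54 to 1.21 TPM in knockout, 0.35 to 0.45 TPM in WT).

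Around the P2X receptors, 2 of 19 tested genes of ATP release, purinergic signalling and NLRP3 activation were higher and 5 lower, with a median log2 difference of -0.08. Among all genes 4.47% were higher and 10.2% lower. Adora3 (5.07 TPM in knockout, 10.2 TPM in WT, limma adjusted p 0.0112), an adenosine receptor, and P2ry2 (11.7 TPM in knockout, 25.4 TPM in WT, adjusted p 0.0163), a G-protein-coupled receptor for ATP and UTP, were lower. So were Il18, an inflammasome product (382 TPM in knockout, 525 TPM in WT, adjusted p 0.0260), Txnip, which binds NLRP3 (241 TPM in knockout, 492 TPM in WT, adjusted p 0.0284), and Nek7, an NLRP3 partner kinase (31.8 TPM in knockout, 43.3 TPM in WT, adjusted p 0.0305). The higher genes were Pycard, the inflammasome adaptor ASC (68.5 TPM in knockout, 43.3 TPM in WT), and the adenosine receptor Adora2a (2.17 TPM in knockout, 0.65 TPM in WT), which was tested only because the knockout libraries reached 1 TPM. Nlrp3 had 34.9 ± 6.5 TPM in Trim33 knockout and 30.3 ± 3.11 TPM in WT, with adjusted p 0.337. Casp1 had 101 ± 7.44 TPM in Trim33 knockout and 91.3 ± 5.29 TPM in WT (adjusted p 0.245), and Il1b 228 ± 85.0 TPM in Trim33 knockout and 158 ± 45.0 TPM in WT (adjusted p 0.319), and none of them passed. After median-ratio scaling 3 genes of this list were higher and 3 lower, beside 5.99% and 3.45% of all genes, and the median log2 difference was 0.08. With 1 library left out the lower ones numbered from 0 without WT replicate 3 to 6 without WT replicate 1. The higher ones numbered 4 without WT replicate 1, 2 without knockout replicate 3 and 0 without any other 1 library.

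Of the 24 tested genes of endolysosomal ion transport outside the symbol rule, 1 was higher and 2 lower, where 4.47% of all genes were higher and 10.2% lower. The proton pump subunit Atp6v0a1 (167 TPM in knockout, 136 TPM in WT, limma adjusted p 0.0446) was higher, and the phosphoinositide phosphatase gene Fig4 (22.7 TPM in knockout, 31.6 TPM in WT, adjusted p 0.0219) was among the lower ones. The lysosomal channels Tpcn1, Tpcn2 and Tmem175 did not pass. Of 21 other channel genes tested, the anion channel Best1 was higher (37.4 TPM in knockout, 28.4 TPM in WT, adjusted p 0.0263), and the calcium-permeable channel Pkd2 (5.36 TPM in knockout, 8.40 TPM in WT, adjusted p 0.0367) and Tmem87a (18.5 TPM in knockout, 25.6 TPM in WT, adjusted p 0.0228) were lower. The same shares of all genes apply to these 21. The Atp6v0a1 call ended whichever library was left out, and the Best1, Pkd2 and Tmem87a calls ended without any library other than WT replicate 1. The Fig4 call ended without knockout replicate 1 or 2 or WT replicate 2 or 3.

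**Figure D4:**
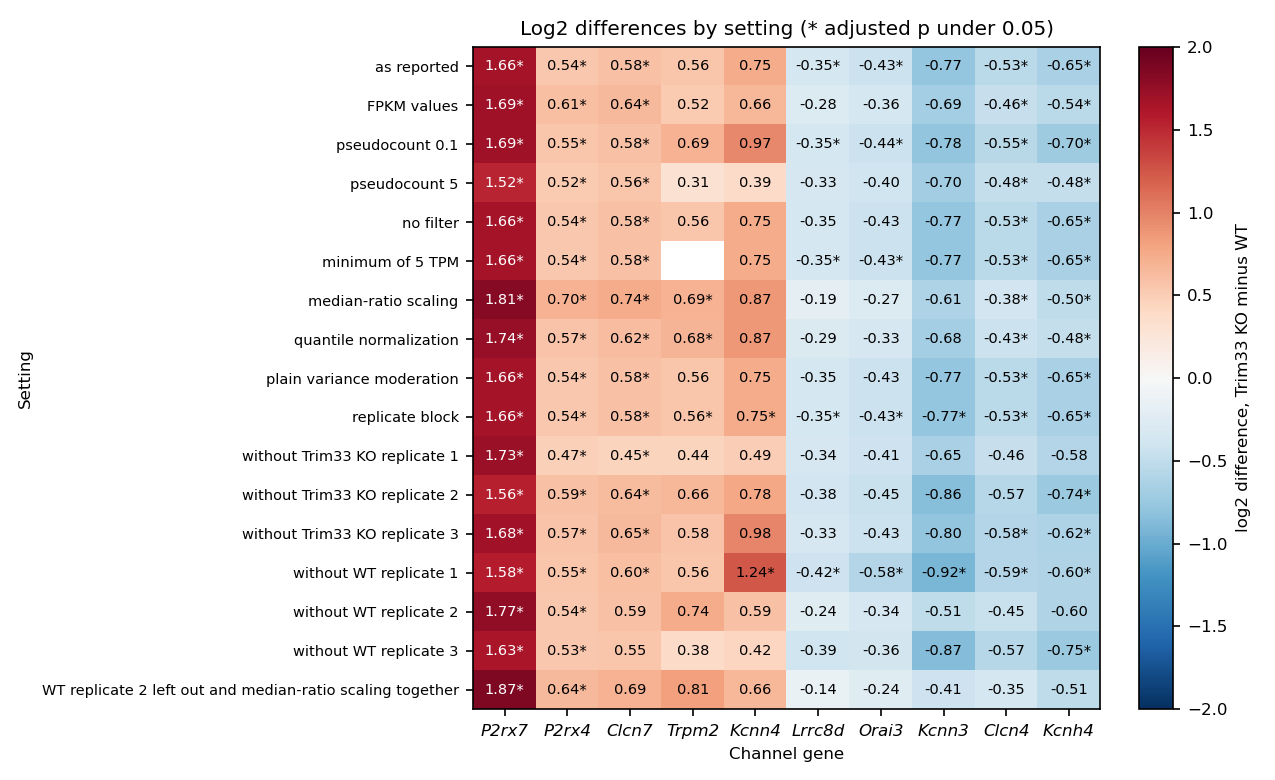
Log2 difference (Trim33 knockout minus WT) of 10 channel genes (columns) under each way of processing (rows), with an asterisk where the limma adjusted p was under 0.05 and a blank where the gene was not tested. P2rx7 and P2rx4 carry an asterisk in every row, and Orai3 and Lrrc8d in 5 of 17.

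The alveolar macrophage markers Siglecf, Marco, Pparg, Car4, Fabp4, Mrc1, Itgax, Ear1, Ear2 and Chil3 were all abundant, with sums of 20447 to 22969 TPM in Trim33 knockout and 29066 to 30795 TPM in WT, and 5 of the 10 were lower, beside 10.2% of all genes. The lower ones numbered 2 without knockout replicate 1 or 2 or WT replicate 3, 3 without WT replicate 2 and 3 after median-ratio scaling. The 6 monocyte markers had no common direction. Ly6c2, Plac8 and Vcan were higher, beside 4.47% of all genes, Vcan tested only because the knockout libraries reached 1 TPM. Fn1 was lower (98.9 TPM in knockout, 429 TPM in WT), and Ccr2 (4.50 TPM in knockout, 4.83 TPM in WT) and Cx3cr1 (2.15 TPM in knockout, 1.06 TPM in WT) were not called. The higher ones numbered 0 without knockout replicate 1 or WT replicate 3 and 1 without knockout replicate 2 or WT replicate 2, and the Fn1 call ended without any library other than WT replicate 1. The list summed to 174 to 228 TPM in knockout and 300.3 to 615 TPM in WT. Ly6c2 had 74.53, 73.32 and 18.82 TPM in Trim33 knockout and 6.03, 1.73 and 3.99 TPM in WT. The part of monocyte-derived cells in the rise of P2rx7, P2rx4 and Clcn7 was not tested. Endothelial markers (19.01 to 20.15 TPM summed in knockout, 7.49 to 31.25 TPM in WT) and fibroblast markers (26.6 to 36.8 TPM in knockout, 18.5 to 42.1 TPM in WT) had their highest value in WT replicate 2. So did 29 of the 50 tested channel genes (58%), the called genes Clcn4, Orai3 and Lrrc8d included, and 53.8% of all tested genes. Without WT replicate 2, 2 of 4 tested fibroblast markers were higher in the knockout, beside 1.74% of all genes. The median log2 difference was then 0.70 for fibroblast and 0.74 for endothelial markers, with no endothelial marker called. With all libraries, or without any other 1 library, no gene of either list was called. The part of endothelial cells and fibroblasts in those channel levels was not tested. Neutrophil markers summed to 143 to 153 TPM in knockout and 114 to 144 TPM in WT, epithelial markers to 154 to 277 TPM in knockout and 213 to 279 TPM in WT, smooth muscle markers to 5.43 to 6.16 TPM in knockout and 3.52 to 5.91 TPM in WT, and none of these lists had a called gene. T cell, B cell and eosinophil markers summed to at most 3.69 TPM in any library.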

How the data were processed

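RNA-seq libraries of primary alveolar macrophages were grouped by the sample labels. The authors deposited TPM values and, in a second table, FPKM values, per gene and library, per the file headers. HISAT2 2.0.4 and Bowtie2 2.2.5, with the build GRCm38.p6, are named without roles in the submitters' processing notes. Which program estimated expression, and with which strand setting, is not given in the sources used here. Depth cannot be read from TPM.

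The test was limma (version 3.58.1, R 4.3.3), fitted to log2(TPM + 1) with trended, robust variance moderation. It covered the 11111 genes that reached 1 TPM in 3 or more of 6 libraries, with Benjamini-Hochberg adjustment over all of them. On simulated data with 11111 genes for this comparison the fit recovered 84 of 100 genes changed by 1 and 99 of 100 changed by 2 on the log2 scale, with 5 false calls among 188. The simulated noise was independent for each gene, with no shift shared by a whole library. In the data WT replicate 2 was highest for 53.8% of all tested genes, so the rate of false calls here may differ. At most 0.369% of tested genes had the same value in a pair of libraries, so none was counted as a duplicate.

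All 172 members matched RefSeq by Entrez ID, and 135 had a promoter window. Some genes of these families and lists are counted but not reported here by name, and 1 tested member is left out of the figures. Members and lists were chosen with earlier results of these data known. Named genes were all called members, the most abundant overall and per class, channels with known macrophage roles, uncalled genes without overlap and a 1.5-fold difference, the 5 most abundant untested members and up to 4 called genes per partner list. Other genes named (P2rx5, Clcn2, Clcn6, Kcnh6, Kcnk5, Lrrc8c, Ostm1, Stim1, Il1b and the like) were chosen after their values were seen. Alternatives were FPKM values, other pseudocounts, filters, scalings and moderation, the replicate number as a block, and leaving out each library. Python 3.11.15 and matplotlib 3.10.9 were used for figures.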

Additional observations from a re-analysis of the deposited data

How the results depend on the processing

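P2rx7 (log2 difference 1.52 to 1.87, adjusted p 2.31e-09 to 0.00206) and P2rx4 (0.47 to 0.70, adjusted p 0.000384 to 0.0450) passed in all 16 alternatives, and the cause of the other changes was not tested unless stated. Of 522 values of single genes under an alternative, 450 kept their direction and side of the threshold, 35 lost and 19 gained a call. The higher channel genes, 3 as reported (4.47% of all genes), numbered 5 after median-ratio scaling (5.99%) and 6 after quantile normalization (5.03%). The lower ones, 4 as reported (10.2% of all genes), numbered 2 on FPKM values (7.83%), with a pseudocount of 5 (9.33%) and with no filter (1.9%). They also numbered 2 after median-ratio scaling (3.45%) and after quantile normalization (5.28%). With 1 library left out the higher ones numbered 2 to 4 (1.12% to 7.2% of all genes) and the lower ones 0 to 14 (0.756% to 23.2%). The most, in both directions and among all genes too, came without WT replicate 1. With WT replicate 2 left out and median-ratio scaling together, an alternative chosen after seeing the data, 2 were higher (2.04%) and 0 lower (0.495%).

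The labels do not say whether libraries with the same replicate number belong together. Deviations from the group means of same-numbered libraries correlated at 0.32, -0.03 and 0.09. Within a group of 3 libraries these deviations depend on each other, so the correlations cannot decide whether the libraries were paired. With the number as a replicate block 6 channel genes were higher (6.78% of all genes) and 10 lower (19.3% of all genes). Kcnn4 and Trpm2 were among those gained as higher, and Kcnn3, Mcoln3, Trpm7, Kcnk6, Clcn3 and Ano8 were gained as lower. Not every library correlated best with the one of its own number.

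All changes of direction were in genes that were not called as reported. Median-ratio scaling gave Clic4 0.122, Hvcn1 0.0656, Kcnab2 0.0691, Mcoln1 0.0100 and Trpv2 0.121, and FPKM values gave Clic4 0.0311 and Trpv2 0.0303. With 1 library left out Clic1 ranged from -0.0502 to 0.0743, Clic4 from -0.0856 to 0.0259 (0.0131 without knockout replicate 1) and Kcna3 from -0.724 to 0.0366. Leaving out WT replicate 2 with median-ratio scaling gave Clcn5 0.0510, Clic4 0.126, Hvcn1 0.0718, Kcna3 0.135, Kcnab2 0.0678, Mcoln1 0.0287 and Trpv2 0.0669. Depth is unknown, so the precision of values near 1 TPM cannot be stated.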
